A study of Homo sapiens with 36 samples.

Results

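Expression of 10 genes of death receptor signalling and extrinsic apoptosis was followed across 8 groups of HCT-116 libraries, out of 62757 gene identifiers counted in each library. They were taken by symbol: the receptor genes FAS, TNFRSF10A, TNFRSF10B and TNFRSF10D, the adaptor gene FADD, the initiator caspase genes CASP8 and CASP10, the caspase-8 brake CFLAR, and AEN and PIDD1, which encode a nuclease and a death-domain scaffold linked to the DNA damage response. All 10 had a mean of at least 64 raw counts in at least 1 group and were tested, among 12356 tested genes; CASP10 passed through 1 group alone.

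HCT-116 cells derive from a human colorectal carcinoma. PolyA mRNA was sequenced from WT cells and from cells with both FBXW7 alleles lost (FBXW7-/-, KO), FBXW7 being the substrate-binding part of a ubiquitin ligase. KO cells were transfected with esiCT, a control pool of endoribonuclease-made siRNAs, or with esiHDAC4 against the class IIa deacetylase HDAC4. Others received esiCT together with #11, a PROTAC made to degrade HDAC4 and reported to degrade all class IIa HDACs. These treatments lasted 48 h, and oxaliplatin (OXPT, a platinum drug that crosslinks DNA) was present at 50 µM for the last 24 h or absent (untreated). The dose of #11 was entered as 1 µM in one label and as 10 µM in another. Each of the 3 KO arms (esiCT, esiHDAC4, #11) and the WT cells gave a group without and a group with OXPT, 8 groups of 3 libraries in all. The titles of the 6 WT libraries name the control siRNA and their treatment entries name esiHDAC4, so that the esiRNA carried by WT cells was not settled, and each comparison of KO with WT holds that doubt. The WT and edited cells came from a supplier, and whether the KO cells are a single clone is not given in the sources used here. Nothing in the labels says that the 3 libraries of a group came from separate cultures, and p-values then measure the spread between these libraries, which may be technical. A further 12 WT libraries carry opposite OXPT states in title and treatment entry and entered no group.

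Extrinsic apoptosis starts at the cell surface. FAS ligand and TRAIL bring together receptors with an intracellular death domain (FAS; DR4, encoded by TNFRSF10A; DR5, encoded by TNFRSF10B), the adaptor FADD binds this domain and recruits procaspase-8 or procaspase-10, and c-FLIP, the product of CFLAR, takes a place in the same complex and limits caspase activation. TNFRSF10C and TNFRSF10D encode decoy receptors that bind TRAIL without passing on the full death signal. Several of these receptor genes, AEN and PIDD1 are textbook targets of the transcription factor p53, which HCT-116 cells keep in functional form.

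The libraries held 10725966 to 20527222 counts on genes, with a median of 14510758, and 7.74% to 22.3% of their reads did not map. Epithelial markers fitted the labelled line: EPCAM ranged from 215 to 360 CPM (counts per 1e6 counts, scaled by the TMM method) and CDH1 from 43.4 to 113 CPM, although the brush border gene VIL1 stayed at 0 to 0.48 CPM. KRT8, KRT18 and CDX2 were also expressed in every library. Of 6 markers of other cell types, PTPRC, CD3E, COL1A2, PECAM1 and CDH5 reached at most 0.792 CPM, and the collagen gene COL1A1 held 25.1 to 77.6 CPM. FBXW7 mRNA averaged 16.9 ± 1.3 CPM in untreated KO esiCT cells and 21.1 ± 3.6 CPM in untreated WT cells (SD, n = 3), and counts over the whole gene cannot check a small edit. HDAC4 mRNA was 8.9, 8.8 and 14.9 CPM with esiHDAC4 and 18.4, 14 and 24.9 CPM with esiCT in untreated KO cells. With #11, which acts on the protein, it was 21.6, 21.9 and 26.9 CPM. Replicate 3 of KO esiCT with OXPT had 22.3% unmapped reads, replicate 3 of WT untreated 13.8% and replicate 3 of KO esiHDAC4 with OXPT 13.4%, the 3 highest shares.

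OXPT raised 7 of the 10 genes in KO esiCT cells, 6 in KO esiHDAC4 cells, 5 in KO #11 cells and 4 in WT cells, and lowered none of them. These are bulk RNA values, in which fewer cells with a transcript and less of it per cell cannot be told apart. A gene was called where edgeR's quasi-likelihood test gave an adjusted p under 0.05 over all tested genes and the fold change passed 1.5. Of all tested genes, 6.23% were called higher and 5.08% lower in KO esiCT cells, 6.44% and 5.54% in KO esiHDAC4 cells, 5.94% and 3.57% in KO #11 cells, and 5.1% and 5.6% in WT cells. FAS, TNFRSF10A, AEN and PIDD1 were called in each of the 4 settings. The median log2 fold change of the 10 genes was 1.12 in KO esiCT cells, 1.21 in KO esiHDAC4 cells, 0.74 in KO #11 cells and 0.63 in WT cells, where the medians of all tested genes were 0.01, 0.02, 0.00 and -0.06. The 3 KO responses do not share libraries, whereas each comparison of arms within KO cells shares a group with 2 of them.

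**Figure D1:**
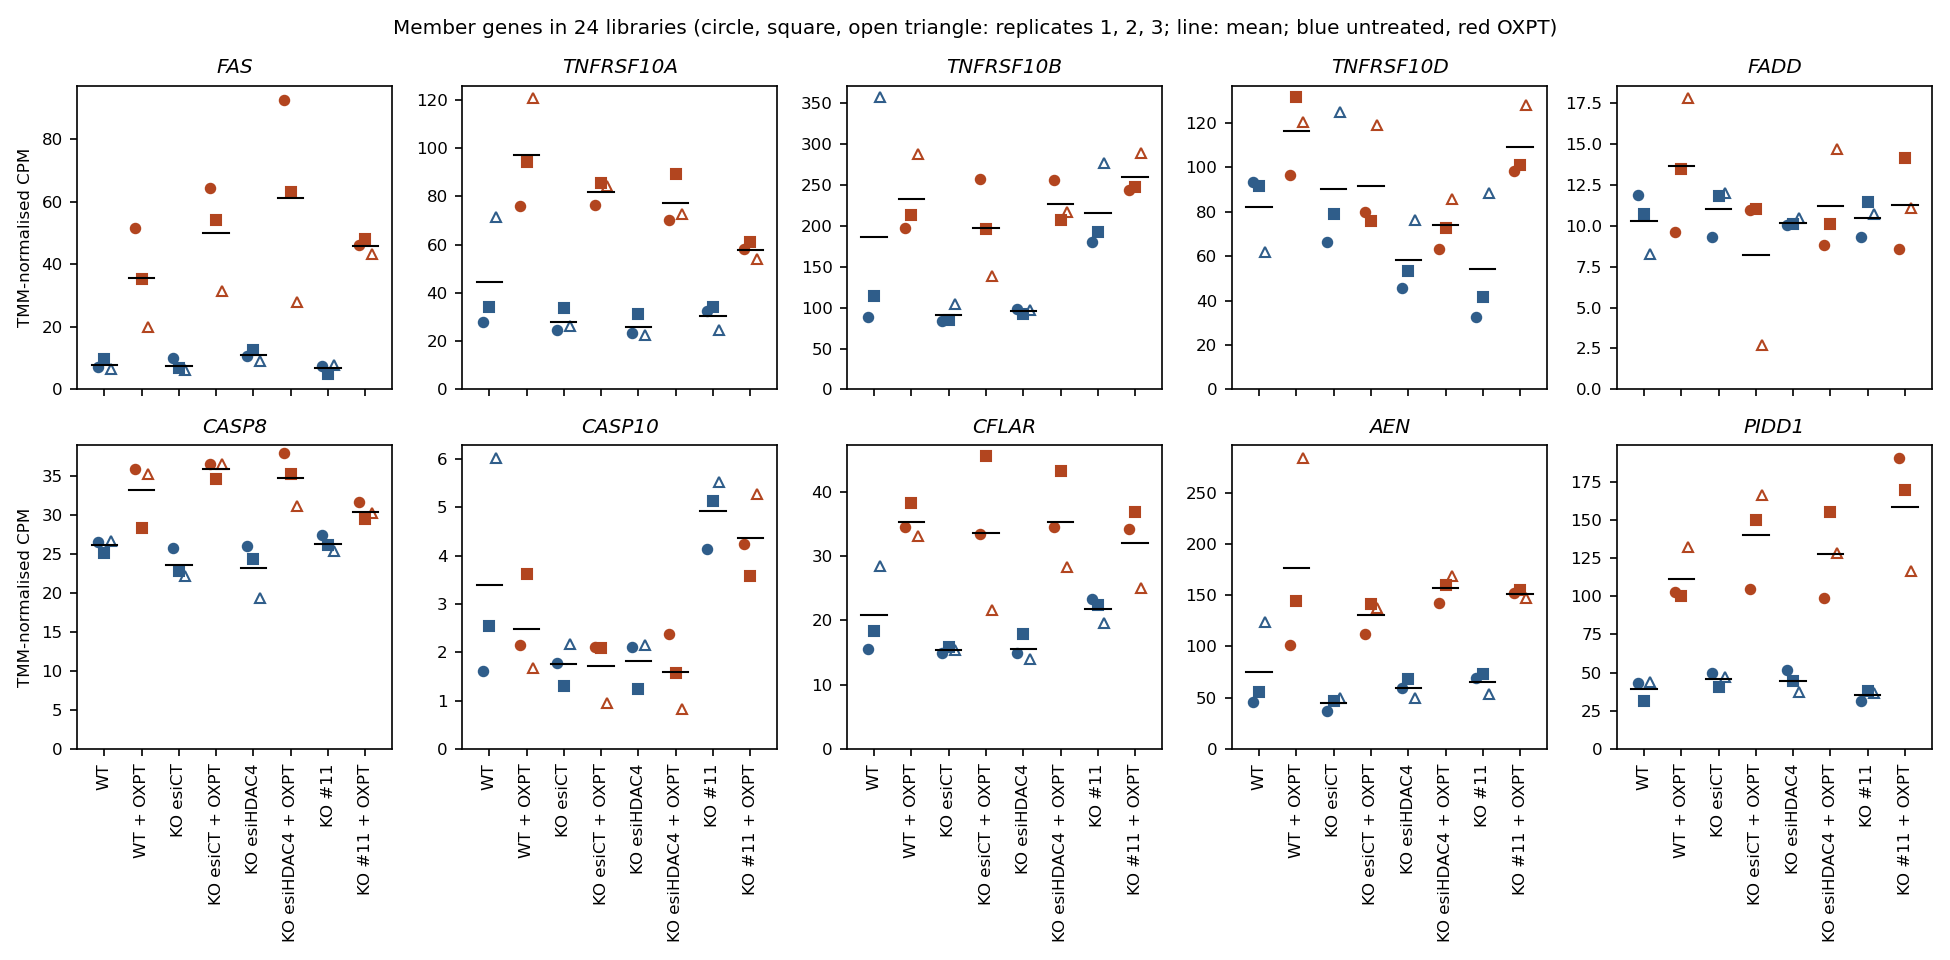
TMM-normalised CPM (vertical axes, linear from 0, one scale per gene) of the 10 genes in 24 libraries of 8 groups; symbols mark replicates 1, 2 and 3, lines the group means, blue untreated and red OXPT. FAS, TNFRSF10A, CASP8, CFLAR and PIDD1 show no overlap between the untreated and OXPT libraries of any setting. The share of all tested genes without overlap was not counted, so this only describes the points. CASP8 and CFLAR show no overlap in WT and KO #11 cells and were not called there. Untreated WT replicate 3 lies above every OXPT library for TNFRSF10B, at 358 CPM.

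FAS showed the largest rise of the 10 genes in every setting. It encodes the receptor of FAS ligand and lies on chromosome 10 (GRCh38, chr10:88953813-89029605, plus strand). In KO esiCT cells FAS was 9.97, 6.76 and 6.20 CPM untreated and 64.6, 54.3 and 31.5 CPM with OXPT, a log2 fold change of 2.71 ± 0.39 (SE; adjusted p = 0.00011). In WT cells it was 7.30, 9.62 and 6.42 CPM untreated and 51.7, 35.2 and 19.9 CPM with OXPT (2.19 ± 0.39 on the log2 scale; adjusted p = 0.000841). With only the 2 WT groups in the model, FAS had an adjusted p of 0.0942 and none of the 10 genes was called. No OXPT library reached down to an untreated one. With esiHDAC4 the 3 untreated libraries held 10.8, 12.5 and 9.26 CPM and the OXPT libraries 92.7, 63.3 and 27.8 CPM, and FAS rose by 2.49 ± 0.39 (adjusted p = 0.000241). With #11 it went from 7.55, 5.05 and 7.68 CPM to 46.4, 48.2 and 43.3 CPM, a rise of 2.77 ± 0.40 (adjusted p = 0.000106). The OXPT libraries of the KO #11 group lay within 43.3 to 48.2 CPM, and replicate 3 was the lowest library in all 4 OXPT groups. FAS overlaps the antisense RNA ENSG00000286116 and ACTA2 over a small part of its exons, and the counts did not use strand, so that reads there belong to no gene by the counting rule.

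TNFRSF10A (DR4; chr8:23190452-23225102, minus strand) and TNFRSF10B (DR5; chr8:23020133-23069031, minus strand) encode the 2 TRAIL receptors that signal, and were called in 4 and 2 settings. TNFRSF10A went from 24.8, 33.6 and 26.1 CPM to 76.3, 85.4 and 84.3 CPM in KO esiCT cells, a rise of 1.54 ± 0.27 on the log2 scale (adjusted p = 0.000845). It rose by 1.59 ± 0.27 in KO esiHDAC4 cells (adjusted p = 0.000602) and by 1.13 ± 0.27 in WT cells (adjusted p = 0.00927). In KO #11 cells the rise was 0.92 ± 0.27, from a mean of 30.5 ± 5.0 CPM to 57.8 ± 3.7 CPM (SD, n = 3; adjusted p = 0.0336). This TNFRSF10A call was lost without any 1 of untreated replicates 1, 2 and 3 or OXPT replicates 1 and 2 of KO #11 (0.76 to 1.00; adjusted p from 0.0764 to 0.155). It was kept with the replicate number as a block (adjusted p = 0.0209). That block is common to all groups, although replicate numbers did not pair #11 with esiCT libraries. The WT call was lost without OXPT replicate 3 or untreated replicate 1 or 2 (adjusted p from 0.052 to 0.0547). With OXPT, the 3 libraries with #11 (58.3, 61.2 and 53.9 CPM) lay below the 3 with esiCT, a difference of -0.50 ± 0.27 that did not pass the test (adjusted p = 0.544). The difference between the #11 and esiCT responses of TNFRSF10A, -0.62 ± 0.38, did not pass either (adjusted p = 0.845).

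TNFRSF10B in KO esiCT cells was 84.3, 85.6 and 105 CPM untreated and 257, 196 and 139 CPM with OXPT, a rise of 1.11 ± 0.36 (adjusted p = 0.0481). With esiHDAC4 it went from 98.6, 92.8 and 97.4 CPM to 257, 208 and 217 CPM, a rise of 1.24 ± 0.36 (adjusted p = 0.0271). The groups did not overlap in either setting. TNFRSF10B shares 7.5% of its exon bases with RHOBTB2 on the opposite strand, and reads there go to neither gene when strand is not used. On 1-strand counts the KO esiCT libraries held 97.3, 96.9 and 110 CPM untreated and 271, 220 and 245 CPM with OXPT. The low value of OXPT replicate 3 was thus not seen on that count. The KO esiCT call of TNFRSF10B was kept in 5 of the 24 fits that left out 1 library, with adjusted p up to 0.164. With the replicate number as a block, its adjusted p was 0.0212. The KO esiHDAC4 call was kept in 18, and was lost without any 1 of the 6 libraries of the comparison (adjusted p from 0.0564 to 0.093). In WT cells the untreated libraries held 88.2, 114 and 358 CPM and the OXPT libraries 198, 213 and 288 CPM. Untreated WT replicate 3 was therefore above every OXPT library, and the WT response of 0.32 ± 0.35 did not pass (adjusted p = 0.629). Without that library the WT response of TNFRSF10B was 1.21 with an adjusted p of 0.00286, where the KO esiCT response was 1.11. The same library was also the highest of its group for TNFRSF10A (71.5 CPM against 27.8 and 34), AEN (124 against 45.6 and 55.2 CPM) and CFLAR (28.4 against 15.5 and 18.3 CPM), but not for FAS or TNFRSF10D. The part of the share of unmapped reads in this was not tested.

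In KO #11 cells TNFRSF10B was high before OXPT. Untreated libraries with #11 held 180, 192 and 277 CPM, all above the 3 untreated esiCT libraries, and OXPT libraries held 244, 248 and 290 CPM. The OXPT response in these cells was 0.27 ± 0.35 (adjusted p = 0.7). The difference of untreated #11 from untreated esiCT cells was 1.24 ± 0.36 (unadjusted p = 0.00239, adjusted p = 0.109), which did not pass over all genes. Of all tested genes 0.51% were called in this comparison, and none of the 10 genes. Without WT untreated replicate 3, which enters only through the shared spread, TNFRSF10B was called here with an adjusted p of 0.00474, and DESeq2 gave 0.0304. The difference between the #11 and esiCT responses, -0.84 ± 0.50, did not pass (adjusted p = 0.828).

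TNFRSF10D (chr8:23135588-23164027, minus strand), the decoy receptor with a truncated death domain, was called in 1 setting. In KO esiCT cells it was 66.4, 78.9 and 125 CPM untreated and 79.7, 75.7 and 119 CPM with OXPT, a difference of 0.02 ± 0.32 (adjusted p = 0.978). The call was in KO #11 cells, where it went from 32.7, 41.5 and 88.3 CPM to 98.2, 101 and 128 CPM, a rise of 1.01 ± 0.32 (adjusted p = 0.0497). This call was kept in 4 of the 24 fits that left out 1 library, and adjusted p reached 0.244 without untreated replicate 1. With the replicate number as a block, the rise was 1.08 (adjusted p = 0.00682). That block is common to all groups, although replicate numbers did not pair #11 with esiCT libraries. Untreated #11 cells had the lowest mean of the 8 groups, 54.2 ± 29.9 CPM, against 90.1 ± 30.8 CPM with esiCT (-0.73 ± 0.32; adjusted p = 0.299), and the groups overlapped. The difference of the #11 and esiCT responses was 0.99 ± 0.45 (unadjusted p = 0.039, adjusted p = 0.692). In WT cells the 3 OXPT libraries of TNFRSF10D were above the 3 untreated ones by 0.50 ± 0.32 (adjusted p = 0.362). The TNFRSF10 genes are paralogs and neighbours on chromosome 8, and reads that mapped to more than 1 place were not counted.

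**Figure D2:**
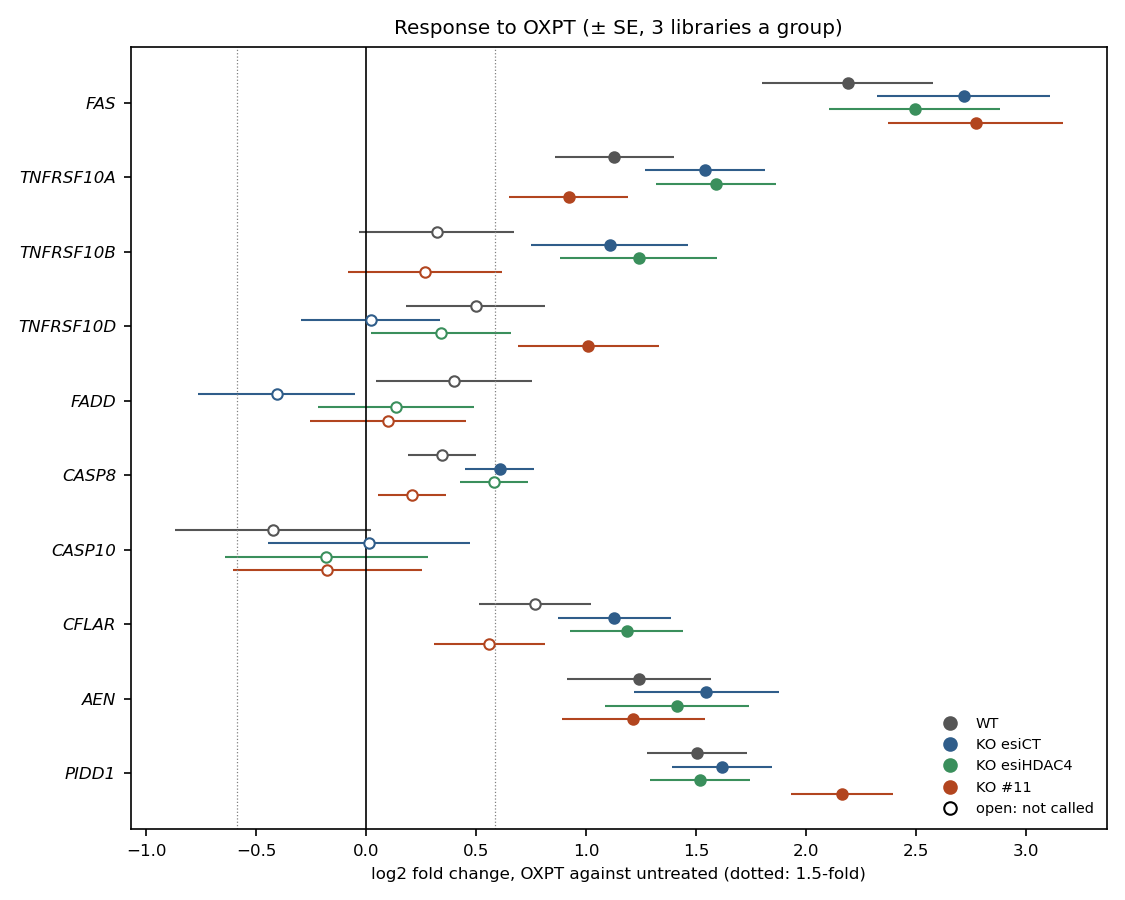
Log2 fold change of OXPT against untreated libraries (horizontal axis, ± SE) for each gene in WT, KO esiCT, KO esiHDAC4 and KO #11 cells; filled points passed adjusted p of 0.05 and a fold change of 1.5, marked by dotted lines. FAS lies furthest right in each setting, from 2.19 to 2.77. TNFRSF10B lies at 1.11 and 1.24 in KO esiCT and KO esiHDAC4 cells and at 0.27 and 0.32 in KO #11 and WT cells. Its WT value was 1.21 without untreated WT replicate 3, and its KO #11 and WT responses did not differ from the KO esiCT response by the test.

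Of the genes of the signalling complex, CFLAR was called in 2 settings, CASP8 in 1, and FADD and CASP10 in none. CASP8, the initiator caspase (chr2:201233443-201361836, plus strand), was 25.7, 22.8 and 22.2 CPM untreated and 36.6, 34.6 and 36.5 CPM with OXPT in KO esiCT cells, a rise of 0.61 ± 0.16 (adjusted p = 0.014) that lay just past the 1.5-fold limit. The CASP8 call was kept in 19 of the 24 fits that left out 1 library, and was lost with only the 2 groups in the model (0.58; adjusted p = 0.14). With esiHDAC4 its change of 0.58 ± 0.16 (adjusted p = 0.0175) lay just short of that limit and was not called. The OXPT libraries were above the untreated ones in all 4 settings, but in WT cells (0.35 ± 0.16; adjusted p = 0.167) and in KO #11 cells (0.21 ± 0.16; adjusted p = 0.457) the test was not passed. CFLAR (c-FLIP; chr2:201116154-201176687, plus strand) was 15.0, 15.9 and 15.3 CPM untreated and 33.4, 45.6 and 21.7 CPM with OXPT in KO esiCT cells, a rise of 1.13 ± 0.26 (adjusted p = 0.00627). With only the 2 KO esiCT groups in the model, CFLAR had an adjusted p of 0.0857, and without OXPT replicate 2 it was 0.82 with an adjusted p of 0.0535. It rose by 1.18 ± 0.26 with esiHDAC4 (adjusted p = 0.00415). The gene of the brake was called in the same 2 settings as TNFRSF10B. In WT cells the CFLAR difference of 0.77 ± 0.25 had an adjusted p of 0.0569, which became 0.0377 with the replicate number as a block and 0.00934 without untreated replicate 3. With #11 it was 0.56 ± 0.25 (adjusted p = 0.183), from untreated libraries of 23.2, 22.3 and 19.6 CPM that were all above those with esiCT.

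FADD (chr11:70203296-70207390, plus strand) and CASP10 (chr2:201182872-201229428, plus strand) had no call in the 4 OXPT responses. FADD held 8.30 to 12 CPM in the 12 untreated libraries and 2.74 to 17.8 CPM in the 12 OXPT libraries, and its responses ran from -0.41 ± 0.36 to 0.40 ± 0.35. The value of 2.74 CPM came from replicate 3 of KO esiCT with OXPT. An antisense RNA, ENSG00000254721, covers 59.2% of the exon bases of FADD, and reads there go to neither gene when strand is not used. Over the 24 libraries 3924 counts were assigned to FADD, against 8185 when reads were taken from 1 strand only, and on that count the 8 group means ran from 32.4 to 47.5 CPM, also without a call. The reads of both genes cannot be told apart. CASP10 was the least expressed member. It averaged 1.75 ± 0.44 CPM in untreated KO esiCT cells and 1.72 ± 0.66 CPM with OXPT (SD, n = 3). With #11 it was 4.15, 5.14 and 5.52 CPM untreated and 4.24, 3.59 and 5.29 CPM with OXPT. All 6 were above the 6 libraries with esiCT, with differences of 1.49 ± 0.45 untreated and 1.30 ± 0.45 with OXPT. CASP10 reached the count filter only through the untreated #11 group (mean of 80.7 raw counts, at most 56 in any other group), where it was high, so these differences are given as a description and no test of it is read. Untreated WT replicate 3, at 6.02 CPM, was higher than any of the 6.

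AEN and PIDD1, the pair of members tied to DNA damage rather than to a surface receptor, rose in every setting. AEN (chr15:88621337-88632281, plus strand) encodes an exonuclease of nucleoli and the nucleus. It went from 37.2, 47.1 and 49.5 CPM to 112, 141 and 137 CPM in KO esiCT cells, a rise of 1.55 ± 0.33 (adjusted p = 0.00382). The rise was 1.41 ± 0.33 with esiHDAC4 (adjusted p = 0.00686) and 1.21 ± 0.33 with #11 (adjusted p = 0.0215). The #11 call of AEN was lost without any 1 of untreated replicates 1, 2 and 3 or OXPT replicates 1 and 2 (adjusted p from 0.0593 to 0.0993). It was kept with the replicate number as a block (adjusted p = 0.01), with the limit of that block given for TNFRSF10A. In WT cells AEN held 45.6, 55.2 and 124 CPM untreated and 101, 144 and 284 CPM with OXPT. These groups overlapped, and the call of 1.24 ± 0.33 (adjusted p = 0.0173) was lost without OXPT replicate 3, when the difference was 0.72 (adjusted p = 0.175), and without untreated replicate 1 or 2 (adjusted p = 0.0854 and 0.0845). PIDD1 (chr11:799179-809753, minus strand) encodes the scaffold that assembles the caspase-2 PIDDosome. In KO esiCT cells it went from 49.9, 40.3 and 46.8 CPM to 105, 150 and 166 CPM, a rise of 1.62 ± 0.23 (adjusted p = 8.28e-05). It rose by 1.5 ± 0.23 in WT cells (adjusted p = 0.000184) and by 1.52 ± 0.23 with esiHDAC4 (adjusted p = 0.000151). In KO #11 cells the libraries held 31.7, 38.1 and 36.6 CPM untreated and 191, 169 and 116 CPM with OXPT, a rise of 2.16 ± 0.23 (adjusted p = 4.86e-06). This was the largest PIDD1 response, but its difference from the esiCT response, 0.54 ± 0.31, did not pass (adjusted p = 0.812).

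**Figure D3:**
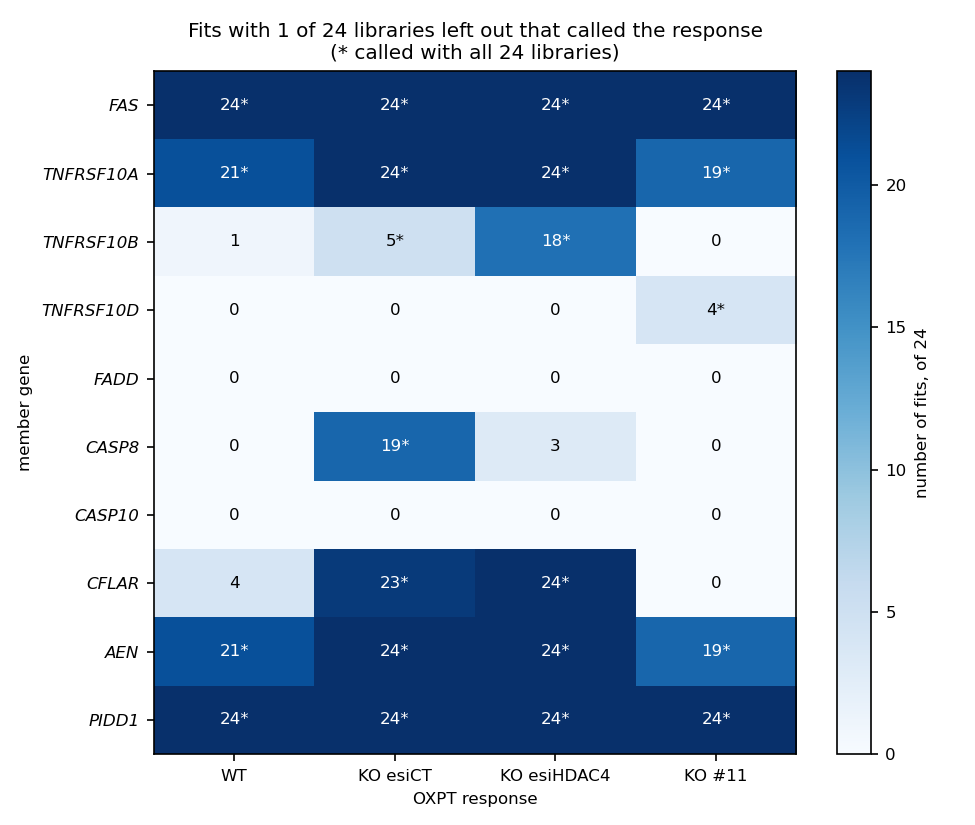
Number of fits, of 24 with 1 library left out each, that called each gene's OXPT response (colour and figure in each cell) in WT, KO esiCT, KO esiHDAC4 and KO #11 cells; an asterisk marks calls made with all 24 libraries. FAS and PIDD1 were called in all 24 fits in every setting, whereas the calls of TNFRSF10B in KO esiCT cells and TNFRSF10D in KO #11 cells held in 5 and 4 fits.

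Expressed per kb of the canonical transcript, which allows levels to be set between genes, untreated KO esiCT cells held most TNFRSF10D and TNFRSF10B mRNA (25.5 ± 8.7 and 22.9 ± 2.9 CPM per kb, SD, n = 3). PIDD1 and AEN followed at 15.3 and 14.5 CPM per kb, then TNFRSF10A at 10.5, CASP8 at 8.87 and FADD at 6.46. The place of FADD depends on the antisense overlap: on 1-strand counts it held 22.2 CPM per kb in these cells, beside TNFRSF10D at 22.2 and TNFRSF10B at 25.4. FAS, at 2.07 CPM per kb, stood below them, with CFLAR at 1.05 and CASP10 at 0.31. With OXPT the order in these cells began with TNFRSF10B at 49.4 ± 14.8 CPM per kb and PIDD1 at 47.1 ± 10.7, whose spreads overlap, and FAS at 13.6 CPM per kb came level with CASP8 at 13.5. Among the 4 receptor genes of the 10, FAS had both the largest fold change and the lowest level before OXPT. CFLAR has a long canonical transcript of 14612 bases, and its level per kb depends on that choice.

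The esiHDAC4 and #11 arms of KO cells did not separate from esiCT in the 10 genes by this test. esiHDAC4 differed from esiCT in 0 of the 10, untreated or with OXPT, where edgeR called 0.00809% and 0% of all tested genes. HDAC4 mRNA averaged 19.1 CPM in untreated KO esiCT cells, 6.5 CPM in these cells with OXPT, and 3.88 CPM with esiHDAC4 and OXPT. The esiHDAC4 comparison under OXPT therefore set 2 low HDAC4 mRNA levels side by side. The paper reports no significant effect of OXPT on HDAC4 protein in KO cells, so these mRNA levels do not give the protein level. Whether they bear on the lack of calls was not tested. None of the 10 had an unadjusted p under 0.05 in either comparison, and DESeq2 called 0. Replicate numbers paired these libraries, and TNFRSF10D was lower with esiHDAC4 in each of the 3 untreated pairs. A block for the number gave -0.61 for TNFRSF10D in the model of all groups (adjusted p = 0.796). With only the untreated esiHDAC4 and esiCT groups, a fit chosen after seeing the data, the block gave -0.60 (adjusted p = 0.0114), which was a call. The share of all genes called in that fit is not given here. With #11 against esiCT, 0 of the 10 were called, where 0.51% of all genes were called untreated and 0.121% with OXPT. Leaving out CASP10, which passed the filter through the untreated #11 group, TNFRSF10B and TNFRSF10D had unadjusted p-values under 0.05 without OXPT and no gene had one with it, and DESeq2 called TNFRSF10B in untreated cells. For FAS, the esiHDAC4 difference in untreated cells was 0.51 ± 0.38 and overlapped the esiCT group.

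**Figure D4:**
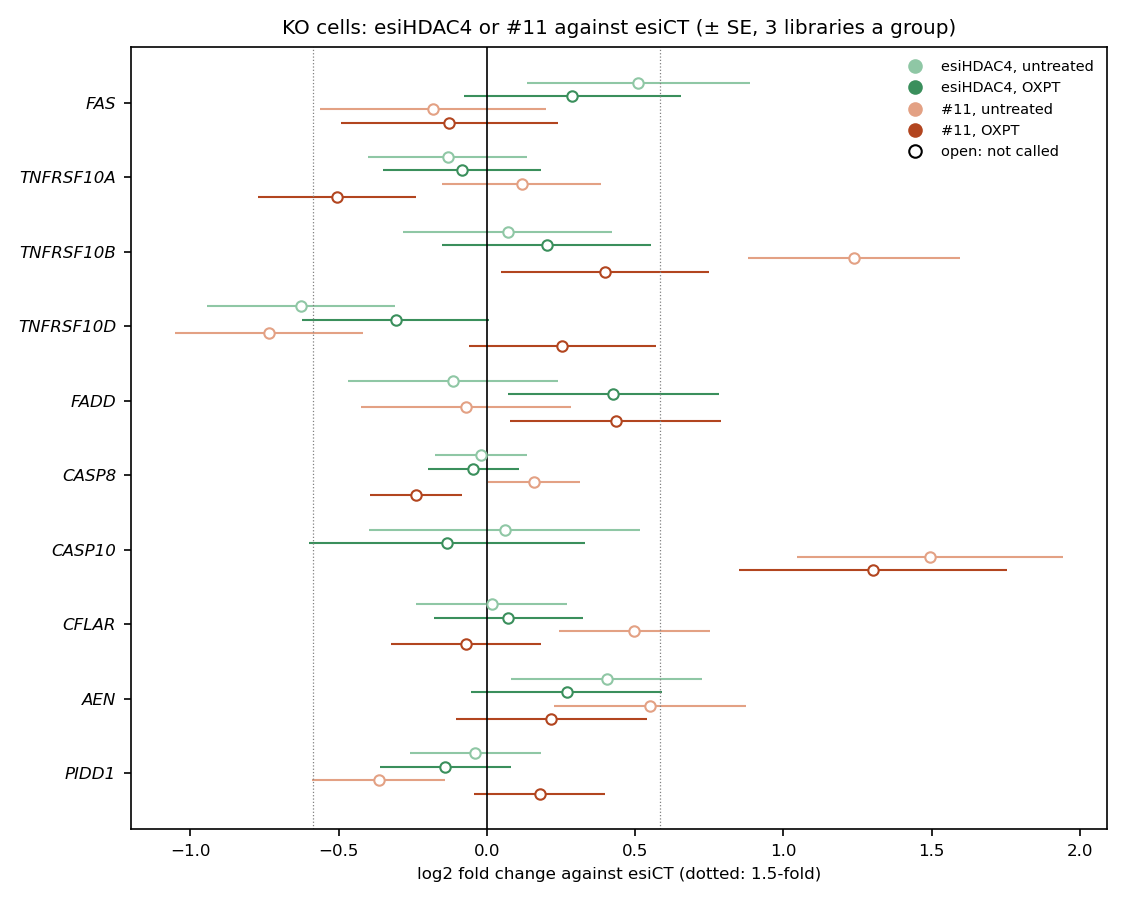
Log2 fold change of esiHDAC4 or #11 against esiCT in KO cells (horizontal axis, ± SE), untreated or with OXPT, for each gene; every point is open because none was called. TNFRSF10B at 1.24 with #11 untreated and CASP10 at 1.49 and 1.30 with #11 lie furthest from 0. CASP10 passed the count filter only through the untreated #11 group, where it was high, so its points are a description and no test of it is read.

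KO esiCT cells differed from WT cells in 0 of the 10 genes, untreated or with OXPT, where 0.291% and 0.138% of all tested genes were called. TNFRSF10A, TNFRSF10B and AEN had unadjusted p-values under 0.05 in untreated cells, all at lower means in KO (-0.66 ± 0.27, -1.02 ± 0.36 and -0.74 ± 0.32), and in each WT replicate 3 was the highest of the untreated WT libraries. Without that library the differences were -0.13, -0.14 and -0.18. With OXPT none had. DESeq2 called 0 in both comparisons. FAS was 7.64 ± 2.03 CPM in KO esiCT cells and 7.78 ± 1.65 CPM in WT cells without OXPT, and 50.1 ± 16.9 and 35.6 ± 15.9 CPM with it (SD, n = 3). The test of the difference between the KO and WT responses called 0 of the 10 genes and 0% of all tested genes, with FAS at 0.53 ± 0.53 and TNFRSF10B at 0.79 ± 0.50. Without untreated WT replicate 3 the value of TNFRSF10B was -0.11 and that of FAS 0.64. The same test against the esiCT response called 0 for esiHDAC4 and 0 for #11, again with 0% of all genes by edgeR, and DESeq2 called none of the 10 in the 3 tests. Of the 10, TNFRSF10D alone had an unadjusted p under 0.05 in these 3 tests of differences, for #11.

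Of 28 further genes of the pathway, 21 were tested. The ligand genes FASLG, TNFSF10 (TRAIL), TNF and TNFSF15 did not pass the count filter, nor did TNFRSF11B, TNFRSF6B and DIABLO; FASLG had 1 count in all 24 libraries together. Of the 21, 2 were called higher in KO esiCT cells, 2 in KO esiHDAC4 cells, 3 in KO #11 cells and 1 in WT cells, where 1 was also called lower. Their median log2 fold changes were 0.09, 0.05, 0.11 and 0.01. One gene was called in every setting: TNFRSF10C, the TRAIL decoy receptor without an intracellular domain, went from 1.98, 1.49 and 2.31 CPM to 12, 11.6 and 10.6 CPM in KO esiCT cells, a rise of 2.56 ± 0.28 (adjusted p = 8.45e-06). It rose by 2.95 ± 0.29 in WT cells, 2.98 ± 0.29 with esiHDAC4 and 2.94 ± 0.29 with #11. TRADD, an adaptor of TNF receptor 1, rose with #11 from a mean of 21.3 to 48.2 CPM (1.18 ± 0.26). DFFA, the inhibitor subunit of the caspase-activated DNase, rose by 0.75 ± 0.20 in KO esiCT and 0.68 ± 0.20 in KO esiHDAC4 cells, and the nuclease gene DFFB rose by 1.00 ± 0.22 with #11. XIAP, an inhibitor of caspases, fell in WT cells from a mean of 58.3 to 30.9 CPM (-0.92 ± 0.26).

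The genes whose log2 CPM followed FAS, TNFRSF10A, TNFRSF10B and AEN most closely over the 24 libraries are given as a description; these libraries share treatments, so that correlated levels are built into the design. FAS was closest to CYFIP2 (r = 0.97), MDM2 (0.96) and SERPINB5 (0.96). TNFRSF10A was closest to TRIML2 (0.97), DUSP14 (0.97) and WDR1 (0.96). AEN was closest to PLK3 (0.96), PLD6 (0.95) and TRAF4 (0.95). TNFRSF10B had the lowest correlations of these 4 genes, with TUFT1 (0.91), ADGRG1 (0.91) and ARC (0.90).

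The promoter windows of RefSeq (GRCh38.p14, 250 bases before to 50 bases after each transcript start) covered 6 of the 10 genes with 13 windows and were searched on both strands for the p53 half-site consensus, because so many of the genes that rose are known p53 targets. It was found in 3 of the 13 windows (23.1%), 1 each of FAS, CASP8 and AEN, and in 6.63% of all 35116 windows. These shares are a description and no test, because the set holds known p53 targets and up to 4 windows of a gene. TNFRSF10A, TNFRSF10B, TNFRSF10D and CASP10 had no window. The stretches around these matches are shown on the plus strand with the half-site in capitals, at chr10:88991299-88991328 for FAS, chr2:201257879-201257958 for CASP8 and chr15:88621296-88621325 for AEN.
FAS: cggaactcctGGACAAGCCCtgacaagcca
CASP8: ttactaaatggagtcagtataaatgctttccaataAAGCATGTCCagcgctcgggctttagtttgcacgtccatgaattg
AEN: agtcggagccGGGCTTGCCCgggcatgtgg
The FAS match lies 511 bases after the start of the canonical transcript and outside the exons of that transcript. Other annotated exons of FAS, and exons of ACTA2 and ENSG00000286116, cover it. The AEN match lies at position -34 from the start, and the CASP8 match at position -2622 from the canonical start, within the gene. FADD, CFLAR and PIDD1 had no match in their windows, and PIDD1 rose nonetheless. A match describes these letters, not a bound site.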

How the data were processed

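PolyA RNA-seq libraries of HCT-116 cells were analysed from the deposited count files, whose values are raw counts of uniquely mapped reads per gene made by the authors; their processing notes list Trimmomatic 0.39, STAR 2.7.11a and hg38. Each file holds unstranded, forward and reverse counts. The forward and reverse totals were nearly equal (reverse to forward ratio 1.00 to 1.02), although the kit is named as stranded, so the unstranded counts were used; the alternative, reading 1 strand, left 35.7% to 43.7% of reads on no gene against 2.58% to 5.79%. Rows that name no gene were left out. Of 62757 identifiers, 62686 matched GENCODE 44.

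The 24 libraries of 8 groups, from titles and treatment entries, were fitted in 1 model with edgeR 4.0.16 in R 4.3.3 (TMM, quasi-likelihood F test, a group mean of 64 counts or more in any group, Benjamini-Hochberg over 12356 genes); 13 comparisons were made, 3 of them between responses. SE is the log2 fold change divided by the root of F. CPM were TMM-normalised; levels per kb used the canonical transcript. No replicate pair agreed within sampling noise (chi-square per degree of freedom 8.31 to 224). Replicate numbers paired the libraries by their deviations (every r above 0.1) in 8 of the 10 comparisons between 2 groups, from r = 0.11 to 0.79, but not for #11 against esiCT. The test was checked on simulated data. Alternatives were 1-strand counts, RLE, DESeq2 1.42.0, other filters, a replicate block, only the groups compared, and leaving out each library. The members and gene lists were chosen with earlier results of these data known. All 10 members are named, as are the listed genes called in an OXPT response and, for 4 members, the 3 genes with the highest r.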

Additional observations from a re-analysis of the deposited data

Results flagged for a closer look

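The 12 WT libraries in no group were set against the WT untreated libraries, normalised together with the rest. FAS was above the highest WT untreated library in 7 of the 12 (range 4.57 to 55.9 CPM, against 6.31 to 9.40 CPM untreated), TNFRSF10A in 8 (24.2 to 119 CPM), CASP8 in 9 (22.4 to 40.5 CPM), AEN in 8 (59.0 to 259 CPM) and FADD in 7. TNFRSF10D, CFLAR and PIDD1 were above it in 6 each, TNFRSF10B in 2 and CASP10 in 1. The same count over all genes was not made, so these numbers are a description of the 10 genes. These libraries carry conflicting OXPT states in their labels, so no group was assigned and no test was made.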

How the results depend on the processing

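The number of the 10 genes called moved by over 1.5 times in these fits. The share of all tested genes called in each fit is not given here, so a moved number is not read as particular to the 10 genes. With only the 2 groups compared in the model it was 4 in place of 7 for the KO esiCT response, 0 in place of 4 for WT, and 2 in place of 0 for #11 against esiCT untreated. The counts of 2 and over in that last comparison include CASP10, which passed the count filter only through the untreated #11 group. There DESeq2 called 2, the fit with no count filter 1, and the fit with the replicate block 1; of the alternatives chosen after seeing the data, leaving number 3 out of every group gave 4 and the groups compared with the replicate block gave 1. The latter also called 1 gene, TNFRSF10D, for esiHDAC4 against esiCT untreated. With no count filter 1 gene, TNFRSF10B, was called lower in KO than in WT untreated cells. Leaving number 3 out of every group called 2 genes, TNFRSF10B and TNFRSF10D, in the difference between the #11 and esiCT responses. Leaving out 1 library gave 5 to 7 genes for KO esiCT, 2 to 6 for WT, 5 to 6 for KO esiHDAC4, 2 to 5 for KO #11, and 0 to 2 for #11 against esiCT untreated, where only WT untreated replicate 3 gave 2; in the other 8 comparisons it gave 0. The WT count fell to 2 without OXPT replicate 3 or untreated replicate 1 or 2, and the KO #11 count fell to 2 without untreated replicate 1 or 2 or OXPT replicate 1 or 2, and to 3 without untreated replicate 3. The cause was not tested. The replicate block changed 2 single calls, CFLAR in WT and TNFRSF10B with #11 untreated, although replicate numbers did not pair #11 with esiCT libraries. Of 4361 values of single genes under other settings, 84 lost a call, 30 gained one and 0 reversed a called direction.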

Other observations

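Untreated WT replicate 3 and KO esiCT OXPT replicate 3 also had the lowest counts of their groups (11991412 and 10725966 on genes). Calls near the limits (TNFRSF10B in KO esiCT, TNFRSF10D in KO #11, CASP8) change with single libraries. With 3 libraries a group, a difference that did not pass is not shown to be absent. Whole-gene counts do not separate the isoforms of FAS, CASP8 or CFLAR, and mRNA levels say nothing of receptor at the surface or of caspase cleavage.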
